A study of Rattus norvegicus with 9 samples.

Results

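The highest dietary concentration of 4-methylimidazole (4-MeI) was compared with control diet in the cerebral cortex of neonatal rats. 4-MeI is an imidazole with 1 methyl group, made during the heating of sugars with ammonia and present at low levels in browned food. The comparison took 3 arrays of the 2500 ppm group and 3 arrays of the control group out of 9 in the series. It covered every probe set on the array apart from the manufacturer's controls, 31042 in all, of which 21729 were bright enough to be tested, and these measured 11606 genes by a single gene symbol. All animals were Hsd:Sprague Dawley rats on postnatal day 4, and each array held cortical RNA from 1 pup of its own F2b litter. Control pups came from the 0 ppm diet. The 2500 ppm pups came from a breeding line fed 4-MeI at 2500 ppm, in which the F0 animals started the diet 2 weeks before mating and exposure went on through successive litters and generations. Another group of 3 pups at 750 ppm was used to estimate the spread between pups and is set beside the results. The title of the series names maternal seizures, but neither the dams affected nor the sex of the pups is given in the labels.

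On postnatal day 4 the rat cortex is still being assembled. Excitatory neurons have been generated and the last of them are reaching the upper layers, axons and dendrites are growing, synapses are starting to form, and astrocytes and oligodendrocytes are at early stages. Genes for adhesion molecules, channels, receptors and signalling proteins set how these neurons connect, glial genes mark the cells that later insulate and feed them, and metabolic genes serve energy supply, lipid building and the breakdown of foreign compounds. The cortex lies between tissues with very different RNA. The meninges cover it, the striatum lies under it, and the choroid plexus and the ependyma line the ventricle on its inner side.

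The arrays matched each other in brightness, with median log2 intensities between 7.66 and 7.70, and the lowest correlation between any 2 arrays was 0.991. The difference between the 3-prime and 5-prime probes of beta-actin, a measure of RNA integrity, was 1.04, 0.93 and 1.02 in the controls and 1.00, 0.96 and 0.91 at 2500 ppm, so the groups overlapped. Neurod6, a transcription factor of cortical excitatory neurons, was bright on all 6 arrays (12.92 to 13.20). Lists of genes of bordering tissue differed between the groups. All 21 striatal genes tested were lower at 2500 ppm, with a median log2 difference of -1.09, and their mean on the 3 arrays lay 1.37, 0.56 and 0.97 below the control mean (control arrays 0.23, -0.16 and -0.06). The 22 genes of the meninges all lay above the controls, by a median of 0.83, and 2500 ppm replicates 1, 2 and 3 had list means of 0.59, 0.83 and 0.92 against 0.44, 0.02 and -0.46 in the controls. The choroid plexus list mean was 1.73, 1.60 and 0.77 at 2500 ppm and -0.08 to 0.06 in the controls. Its median over 9 genes was only 0.32, with 8 above 0 and Ttr the highest at 5.67. The 4 red blood cell genes all lay above 0, median 0.65 (Alas2 and Slc4a1 rose by 0.70 and 0.61). The 20 genes of endothelium all lay above 0 (median 0.28). Whether a list differed because there were more or fewer cells of that kind or because each cell held more or less RNA cannot be told apart in tissue RNA. These values move with the group, and they are given again beside the results they touch.

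**Figure D1:**
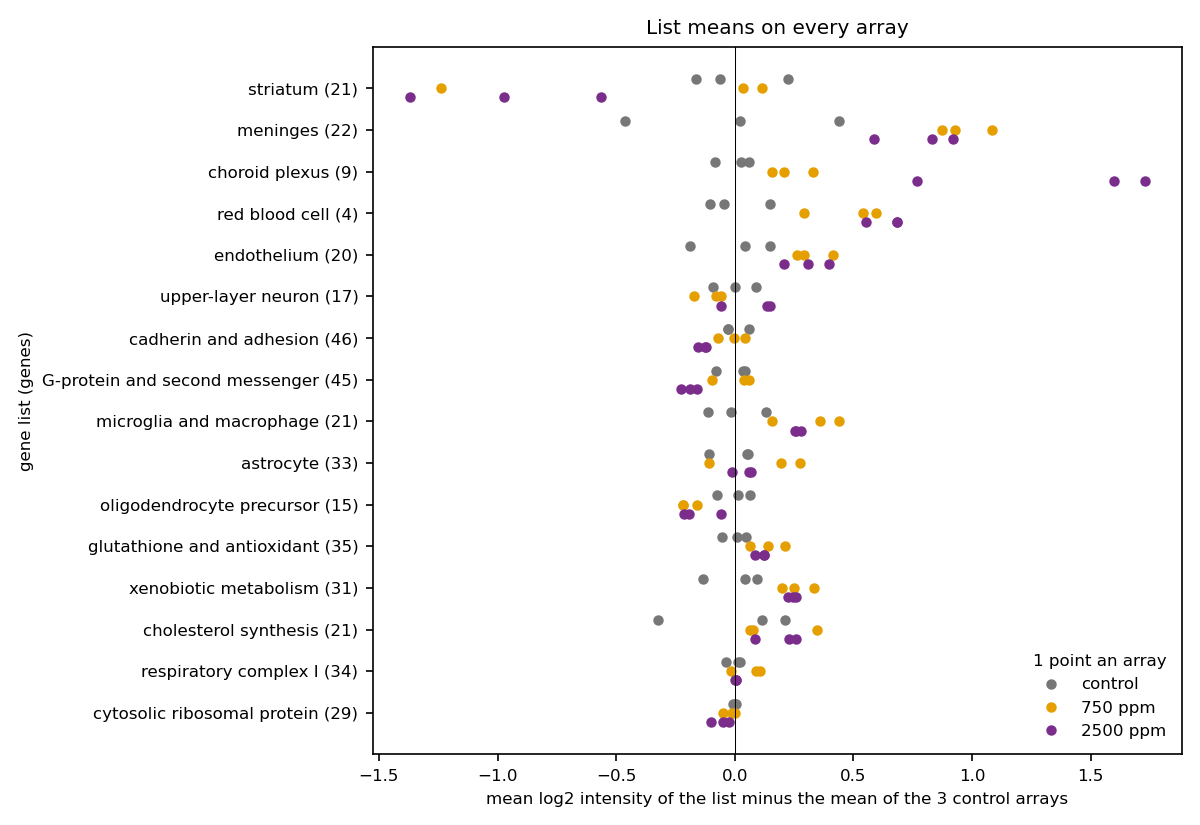
Mean log2 intensity of 16 gene lists on each of the 9 arrays, relative to the mean of the 3 control arrays, with 1 point per array and the number of genes in parentheses. The striatal means at 2500 ppm lie between -1.37 and -0.56 and the choroid plexus means between 0.77 and 1.73, while the respiratory complex I means at 2500 ppm lie between 0.0025 and 0.0069.

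In the limma model, 149 of 21729 probe sets (0.686%) passed an adjusted p of 0.05. Of these, 61 (0.281%) were higher at 2500 ppm and 88 (0.405%) were lower, and in every one the 3 arrays of the 2500 ppm group lay wholly above or wholly below the 3 controls. They carried 96 genes with a single symbol, 42 higher and 54 lower, and 50 probe sets without a symbol. Most changes were moderate: 84 of the 96 genes differed by less than 1 on the log2 scale, on which 1 is a doubling of intensity. With 1 called probe set per gene, the median was 0.66 among the 42 genes called higher and -0.59 among the 54 called lower. Before adjustment 3478 probe sets (16%) had a p under 0.05, 1497 of them higher (6.89%) and 1981 lower (9.12%), where 1086.5 would be expected with no difference. Groups of 3 arrays without overlap were found in 9.87% of probe sets in the higher and 13.4% in the lower direction. The count moved with single arrays. Leaving out control replicate 1 gave 144, with 58 lower, control replicate 2 gave 14 and control replicate 3 gave 32. Leaving out 2500 ppm replicates 1, 2 and 3 in turn gave 25, 9 and 57, and leaving out 750 ppm replicates 2 and 3 gave 233 and 447. With the mean of the striatal list as a covariate 7 probe sets passed, and with the mean of the meningeal or the choroid plexus list limma called 0, while 1495 and 1410 still had an unadjusted p under 0.05. The 3 list means move with the group, so as covariates they leave less precision for the group difference. Differences that kept their size also lost their call. With the choroid plexus mean, C1ql3 was at -1.36 (adjusted p = 0.583) and Sv2b at -1.34 (adjusted p = 0.652). A call lost with a covariate therefore does not show what accounts for a difference.

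**Figure D2:**
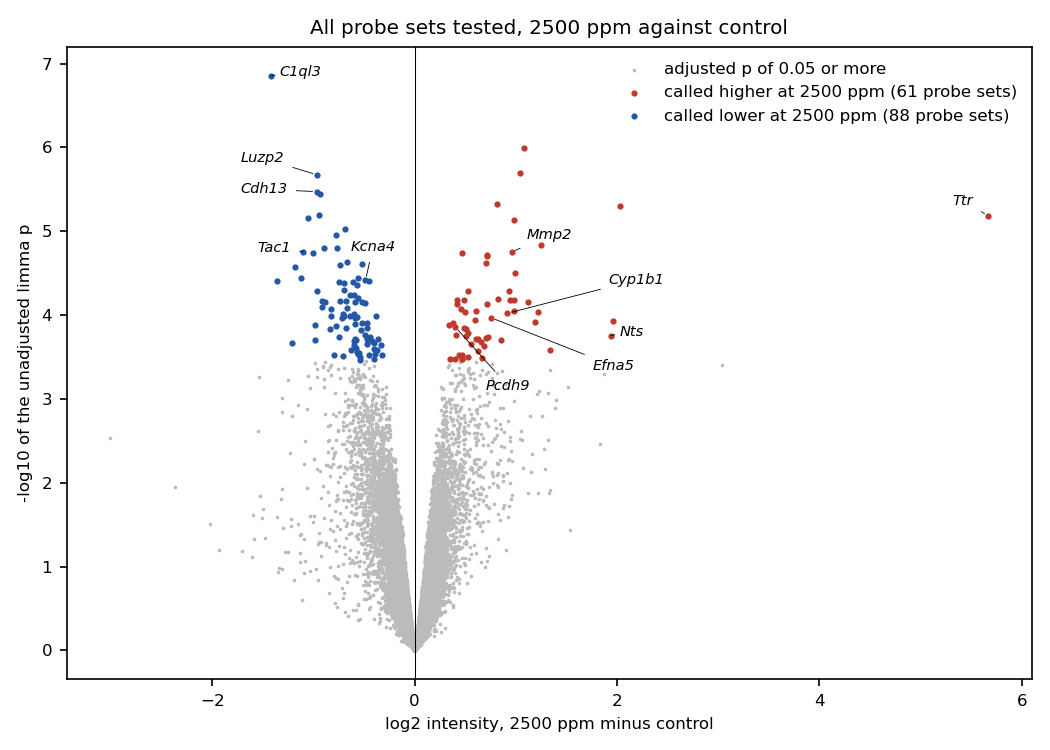
Log2 difference between 2500 ppm and control (horizontal) and -log10 of the unadjusted limma p (vertical) for the 21729 probe sets tested, with the 61 called higher in red and the 88 called lower in blue. C1ql3 has the smallest p, and Ttr stands apart with a difference of 5.67.

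The strongest changes are given in short. Among the genes called, the 12 with the largest rises were Ttr, Col8a2, Nts, Krt8, Ap1s3, Sult1a1, Tshz2, Fmod, Slc47a1, Ada, Mustn1 and Serpinb1a. The control means of Krt8 and Slc47a1 were 6.21 and 6.22, below the limit of 6.35 for dim probe sets. Both genes passed that limit through the arrays of the 4-MeI groups. The 12 called genes with the largest falls were C1ql3, Cdh22, Tac1, Syt6, Plce1, Sv2b, Cdh13, Luzp2, Meis2, Rasgef1c, Prrc2c and Rnd3. Larger differences that did not pass were also present. Sostdc1 of the choroid plexus list at 3.04, Oprk1 at -1.51 and Drd1 of the striatal list at -1.32 are named here after their values were seen. A second, dimmer probe set of Oprk1 was at 0.0047 (limma, unadjusted p = 0.960), and that of Drd1 was at -1.23. The control mean of Sostdc1 (6.07) and the 2500 ppm mean of Oprk1 (6.29) also lay below the limit of 6.35. With the choroid plexus mean, to which Ttr itself contributes, as a covariate the Ttr difference went from 5.67 to 2.19. Under the same covariate Krt8 went from 1.34 to 0.11 and Tshz2 from 1.19 to 0.43. With the meningeal mean, to which Fmod itself contributes, Col8a2 went from 1.96 to 0.89 and Fmod from 1.12 to 0.57. For Ttr and Fmod part of this reduction is fixed by their own membership. None of the 12 highest passed with any of the 3 covariates. The 12 lowest kept differences of -1.52 to -0.61 under the 3 covariates, and 2 of them, C1ql3 and Luzp2, passed with the striatal mean and none with the others. Only 8 probe sets passed each time 1 array was left out. Those with a gene symbol measured C1ql3, Luzp2 and, on 2 probe sets, Cdh13, and the other 4 had no symbol. C1ql3 encodes a secreted C1q-like protein of excitatory synapses and read 10.34, 10.26 and 10.29 on the control arrays and 9.05, 8.64 and 8.95 at 2500 ppm. Every exposed array lay more than 1 log2 unit below every control, and the fall was 1.42 (SE 0.10, adjusted p = 0.00304). At 750 ppm the gene read 10.38, 10.53 and 10.46, above every control. A second, dimmer C1ql3 probe set was at 0.12 (unadjusted p = 0.102).

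Nts and Tac1, which both encode precursors of secreted neuropeptides, moved in opposite directions. Cyp1b1, a cytochrome P450 that oxidises aromatic compounds and steroids, rose. Their promoters are shown because the elements through which neuronal activity and foreign compounds act on transcription are short and can be looked for in them. Each sequence is the 250 bases before the start of the RefSeq transcript in the GRCr8 assembly, read 5′ to 3′ on the strand of the gene. Capitals mark TGACG (the half-site of the cyclic AMP response element) and TGAGTCA (the AP-1 site) in Nts and Tac1, and GCGTG (the core of the aryl hydrocarbon receptor site) in Cyp1b1, on either strand. The matches do not overlap.
Nts, chr7:39460889-39461138, minus strand: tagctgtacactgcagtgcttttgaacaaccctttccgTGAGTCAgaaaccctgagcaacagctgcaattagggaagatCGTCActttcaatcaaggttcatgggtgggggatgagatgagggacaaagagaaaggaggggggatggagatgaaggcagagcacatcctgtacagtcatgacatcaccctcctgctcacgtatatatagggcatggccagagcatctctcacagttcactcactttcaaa
Tac1, chr4:36645333-36645582, plus strand: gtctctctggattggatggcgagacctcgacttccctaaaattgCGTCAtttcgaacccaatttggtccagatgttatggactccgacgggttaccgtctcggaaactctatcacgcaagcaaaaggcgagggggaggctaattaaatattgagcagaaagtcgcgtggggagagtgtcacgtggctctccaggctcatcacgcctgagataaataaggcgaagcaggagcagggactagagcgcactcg
Cyp1b1, chr6:21094315-21094564, plus strand: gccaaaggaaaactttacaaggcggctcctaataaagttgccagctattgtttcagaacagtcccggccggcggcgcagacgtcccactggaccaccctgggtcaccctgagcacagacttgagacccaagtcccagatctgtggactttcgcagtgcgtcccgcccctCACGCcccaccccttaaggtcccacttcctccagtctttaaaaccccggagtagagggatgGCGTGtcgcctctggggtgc
Nts held 1 match to each of its motifs, Tac1 held 1 to TGACG and 0 to TGAGTCA, and Cyp1b1 held 2 to GCGTG. Sult1a1, the other xenobiotic gene called, held 0 to GCGTG in the same window. Of 33469 promoters of this length, 18.2% held TGACG, 4.05% TGAGTCA and 25.9% GCGTG, so none of these letters is rare, and a match describes the sequence only.

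Nts read 8.55, 9.04 and 8.83 in the controls and 11.33, 10.79 and 10.12 at 2500 ppm. The groups did not overlap, the rise was 1.94 (SE 0.32, adjusted p = 0.0378), and the order of the 3 exposed arrays was that of their choroid plexus list means. With that list mean as a covariate the Nts difference was 0.39. Tac1 read 10.56, 10.33 and 10.13 in the controls and 9.29, 9.08 and 9.34 at 2500 ppm. It fell by 1.10 (SE 0.14, adjusted p = 0.0185), and with the striatal mean, to which Tac1 itself contributes, as a covariate the difference was -0.91 (adjusted p = 0.128).

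Of the called genes with a change under 1 that are not among those 24, the 12 with the smallest p in the lower direction included several of the neuronal membrane. They fell by 0.45 to 0.69 on the log2 scale, with standard errors of 0.06 to 0.10 and adjusted p between 0.0201 and 0.0266. Kcna4, the A-type potassium channel subunit that limits repetitive firing, read 8.95, 9.04 and 8.98 in the controls and 8.42, 8.52 and 8.57 at 2500 ppm, a fall of 0.49. Rims2, a scaffold of the presynaptic active zone, read 8.56, 8.73 and 8.57 against 8.10, 8.03 and 8.16, a fall of 0.53. For both genes the gap between the lowest control and the highest exposed array was wider than the range within either group.

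Pacsin1, an adaptor in the recycling of synaptic vesicle membrane, fell by 0.61, from 8.15, 8.24 and 8.27 to 7.64, 7.62 and 7.57. Neto2, an auxiliary subunit of kainate receptors, fell by 0.69 on the dimmer of 2 probe sets, from 10.31, 10.22 and 10.35 to 9.52, 9.77 and 9.51. The brighter was at -0.36 (unadjusted p = 0.00218). Kainate receptors are glutamate-gated channels, and the kainate subunit gene Grik2 itself was at -0.91 (adjusted p = 0.0553), from 9.78, 9.76 and 10.15 to 8.82, 9.17 and 8.98. Flrt3, an adhesion protein that binds latrophilins and Unc5 receptors, fell by 0.56, from 10.15, 10.19 and 9.99 to 9.41, 9.62 and 9.62. Slc7a14, a member of the cationic amino acid transporter family, fell by 0.68, from 9.33, 9.30 and 9.66 to 8.70, 8.70 and 8.85. Zfp423, a zinc finger transcription factor of neural and fat cell precursors, fell by 0.57 on its brightest probe set, from 10.66, 10.63 and 10.59 to 10.00, 10.08 and 10.10. Zfp423 has 3 further probe sets, of which 1 was at -0.33 (unadjusted p = 0.00255) and the others at 0.09 and 0.05. In none of these genes did an exposed array reach the lowest control.

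The remaining 5 of the 12 are genes of RNA processing, repair and cell survival, and 1 locus without a described role. Sf3b1, a core component of the U2 splicing particle, read 8.21, 8.36 and 8.26 in the controls and 7.65, 7.64 and 7.53 at 2500 ppm, a fall of 0.67. Casp8ap2, which serves histone transcript processing, fell by 0.49, and Xiap, an inhibitor of caspases, fell by 0.59. Alkbh1, a nucleic acid demethylase, fell by 0.45, and LOC102553760 by 0.52. The 2500 ppm mean of LOC102553760 was 6.32, just below the limit for dim probe sets. The exposed arrays of these genes also lay below every control.

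With the striatal list mean as a covariate, the 12 differences ran from -0.77 to -0.39, with the meningeal mean from -0.77 to -0.37, and with the choroid plexus mean from -0.93 to -0.31. They kept their direction under each covariate and each time an array was left out, but none passed with a covariate. Since the covariates move with the group, a call lost in this way does not show that a difference went away. Counting the 12 higher genes as well, 0 of the 24 passed without control replicate 2 or without 2500 ppm replicate 2, 4 without control replicate 3, 2 without 2500 ppm replicate 1 and 5 without 2500 ppm replicate 3.

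**Figure D3:**
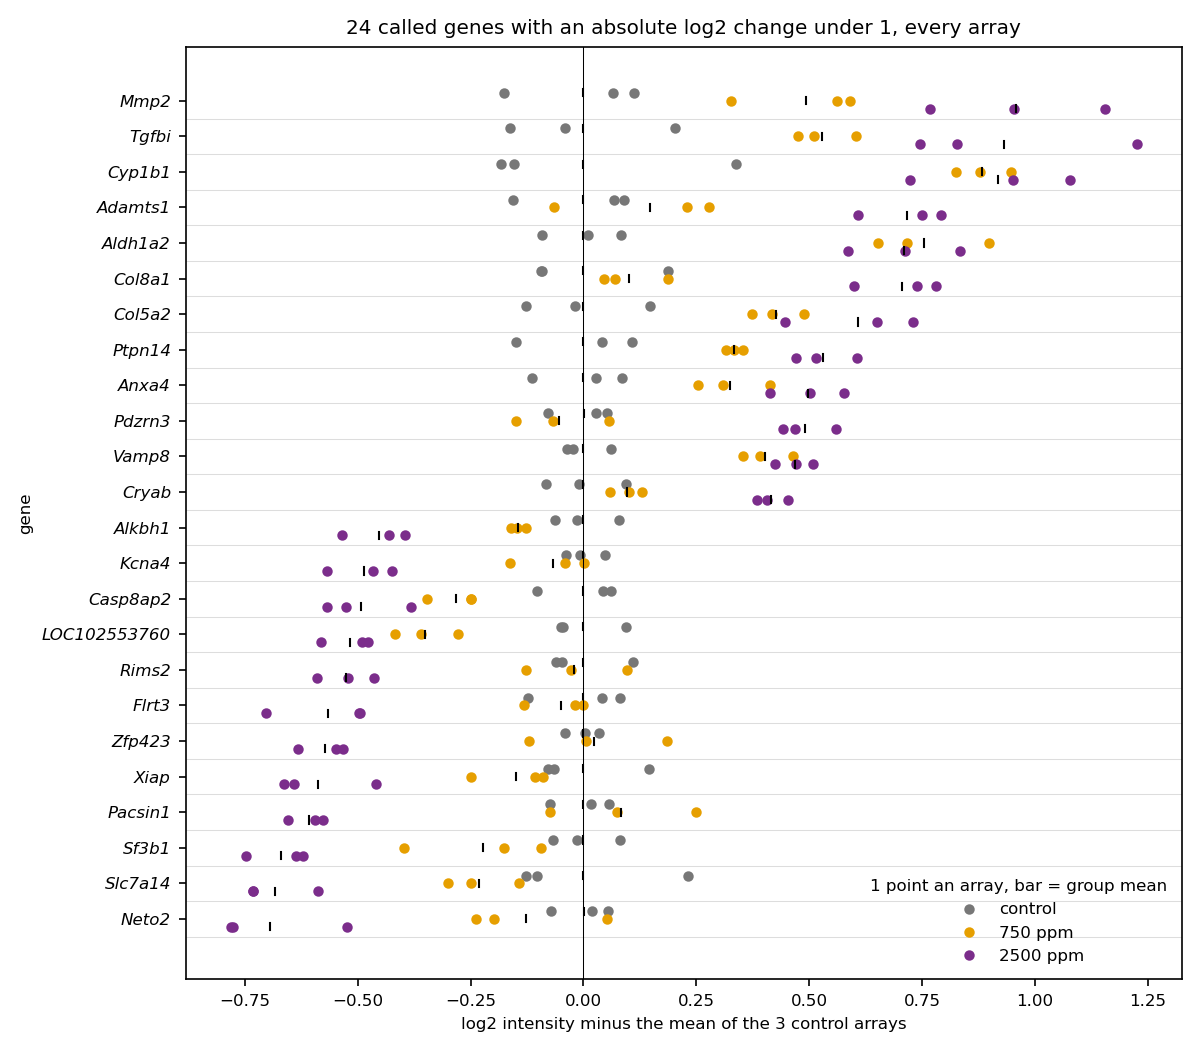
Log2 intensity of 24 called genes with a change under 1, the 12 with the smallest p in each direction once the 12 largest rises and 12 largest falls are set aside, relative to the mean of the 3 control arrays, with 1 point per array and a bar at each group mean. All 2500 ppm points lie outside the control points, while the 750 ppm points of Kcna4, Rims2, Pacsin1, Zfp423, Flrt3 and Pdzrn3 overlap the controls.

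In the higher direction, the 12 moderate genes with the smallest p, again after the 12 largest rises were set aside, rose by 0.41 to 0.96, with standard errors of 0.06 to 0.14 and adjusted p between 0.0185 and 0.0300. Several encode proteins of the extracellular matrix. Mmp2, a gelatinase, read 7.51, 7.47 and 7.23 in the controls and 8.56, 8.36 and 8.17 at 2500 ppm, a rise of 0.96. Tgfbi, a matrix protein induced by TGF-beta, rose by 0.93. Col8a1 and Col5a2, which encode collagen chains, rose by 0.71 and 0.61, and the matrix protease gene Adamts1 rose by 0.72. Aldh1a2, which makes retinoic acid and is itself on the meningeal list, rose by 0.71, from 8.61, 8.54 and 8.43 to 9.11, 9.24 and 9.36. Ptpn14, a phosphatase of the Hippo pathway, rose by 0.53, Anxa4, a calcium-dependent membrane-binding protein, by 0.50, and Vamp8, an endosomal SNARE, by 0.47. The remaining gene, Cyp1b1, is described with the xenobiotic genes. With the meningeal mean as a covariate, the 12 differences were 0.34 to 0.81 and none passed.

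Cryab, a small heat shock chaperone, and Pdzrn3, a ubiquitin ligase, complete this group. Cryab read 7.51, 7.44 and 7.61 in the controls and 7.91, 7.97 and 7.93 at 2500 ppm, a rise of 0.41 (SE 0.06, adjusted p = 0.0268). Pdzrn3 read 11.40, 11.27 and 11.38 against 11.79, 11.82 and 11.91, a rise of 0.49 (SE 0.07, adjusted p = 0.0266). For both genes the exposed arrays lay close together above every control, and the 750 ppm arrays read close to the controls (7.58 to 7.65 and 11.20 to 11.41). Neither is a member of a bordering-tissue list, but these lists hold only some of the genes of such tissue. Neither passed with the striatal, meningeal or choroid plexus mean as a covariate. The adjusted p were 0.116, 0.515 and 0.754 for Cryab and 0.0842, 0.550 and 0.6865 for Pdzrn3.

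A gene measured by several probe sets gives a check within the array. Of the 11606 genes, 3340 had 2 or more probe sets tested. In 239 of these (7.16%), at least 2 probe sets had an unadjusted p under 0.05, all probe sets pointed the same way and the best one did not overlap between the groups. They were 81 higher (2.43%) and 158 lower (4.73%). With a best difference of 0.3 to 1, 165 (4.94%) remained, 49 higher (1.47%) and 116 lower (3.47%). Cdh13, a cadherin without a cytoplasmic domain, was called on all 3 of its probe sets, at -0.97, -0.94 and -0.75. The brightest probe set read 12.13, 12.05 and 12.29 in the controls and 11.11, 11.33 and 11.20 at 2500 ppm.

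Lower values on more than 1 probe set also covered synaptic, matrix and cytoskeletal genes. Glra2, the glycine receptor subunit of the fetal brain, was at -0.59 (adjusted p = 0.0321) and -0.49 (adjusted p = 0.0505). Its called probe set read 8.63, 8.88 and 8.85 in the controls and 8.05, 8.31 and 8.22 at 2500 ppm, and the 750 ppm arrays read higher than the controls, 8.93 to 9.13. Vcan, a chondroitin sulfate proteoglycan of the early brain matrix and of oligodendrocyte precursors, was at -0.56 (adjusted p = 0.0475), -0.50 and -0.27. Slco3a1, an organic anion transporter, was at -0.40 (adjusted p = 0.0497) and -0.54, the second with an unadjusted p of 0.000762. N4bp1, a ribonuclease of immune signalling, was called on 1 of 3 probe sets at -0.83, with the others at -0.41 (unadjusted p = 0.000531) and -0.02. Ppp1r12a, a myosin phosphatase subunit, was at -0.57 (adjusted p = 0.0624), at -0.24 on its brightest probe set, and at -0.28 and -0.05 on the others. The exposed and control arrays of each gene did not overlap on the probe set with the smallest p, which was a condition for naming it.

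Higher values on more than 1 probe set included neuronal genes. Arhgef26, a guanine nucleotide exchange factor, was called on both of its probe sets, at 0.51 and 0.47. It read 9.57, 9.45 and 9.60 in the controls and 9.93, 10.08 and 10.14 at 2500 ppm, with the 750 ppm arrays lower than the controls at 9.07 to 9.32. Pcdh9, a protocadherin of cortical neurons, was at 0.40 (adjusted p = 0.0334) and 0.43 (unadjusted p = 0.000425). Its brightest probe set read 12.24, 12.26 and 12.20 in the controls and 12.70, 12.54 and 12.66 at 2500 ppm. Chst8, a sulfotransferase of sugar chains, was at 0.43 on both, with adjusted p of 0.0475 and 0.0611. Adcyap1, the precursor of the neuropeptide PACAP, was at 0.53 (adjusted p = 0.0556) and 0.41, and its exposed arrays read 9.97, 9.93 and 9.96 against 9.33, 9.61 and 9.33. Olfml1 rose by 0.52 (adjusted p = 0.0490). Fstl1 was at 0.59, Rbpms at 0.31 and Ddr2 at 0.74, with adjusted p of 0.0585, 0.0933 and 0.0772. The control mean of Rbpms was 6.27 on that probe set, below the limit for dim probe sets. With the meningeal mean as a covariate, Fstl1, Rbpms and Ddr2 were at 0.22, 0.18 and 0.20, Olfml1 was at 0.32, and Arhgef26 and Pcdh9 were at 0.52 and 0.40.

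Probe sets of the same gene also disagreed. Of the 96 called genes, 42 had several probe sets tested, 11 higher and 31 lower, and 34 of the 42 had a second probe set with an unadjusted p under 0.05. In 26 the called probe set was not the one with the highest mean intensity, and 23 of these 26 were falls. Of the 31 lower genes, the brightest probe set passed in 9 and had an unadjusted p under 0.05 in 22. Sf3b1 was at -0.67 and -0.51 on its dimmer probe sets and at -0.12 (limma, unadjusted p = 0.148) on the brightest. Ankrd11, a chromatin regulator, was at -0.68, -0.70 and -0.41, and Prrc2c, an RNA granule protein, at -0.88, -0.62, -0.39 and -0.28.

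Setd5, Smarca2, Chd4 and Prpf4b, named here after their values were seen, show the same contrast. Setd5, a SET domain protein, was at -0.75 on the called probe set and -0.14 on the brightest, with another at -0.16. Smarca2, a chromatin remodeller, was at -0.49 and -0.16, but another probe set, dimmer than the brightest, was at -0.495. Chd4, the remodeller of the NuRD complex, was at -0.33 and -0.00084, and Prpf4b, a splicing kinase, at -0.63 and 0.0050, with others at -0.25 and -0.24. The called probe set was chosen by its p, so a smaller change on another probe set follows in part from that choice. Over all 3340 genes, 257 brightest probe sets were lower and 215 higher at an unadjusted p under 0.05. The dimmest probe set of each gene was lower in 381 and higher in 172. Which part of each transcript a probe set reads is not given in the files used here, and its part in this contrast was not tested.

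**Figure D4:**
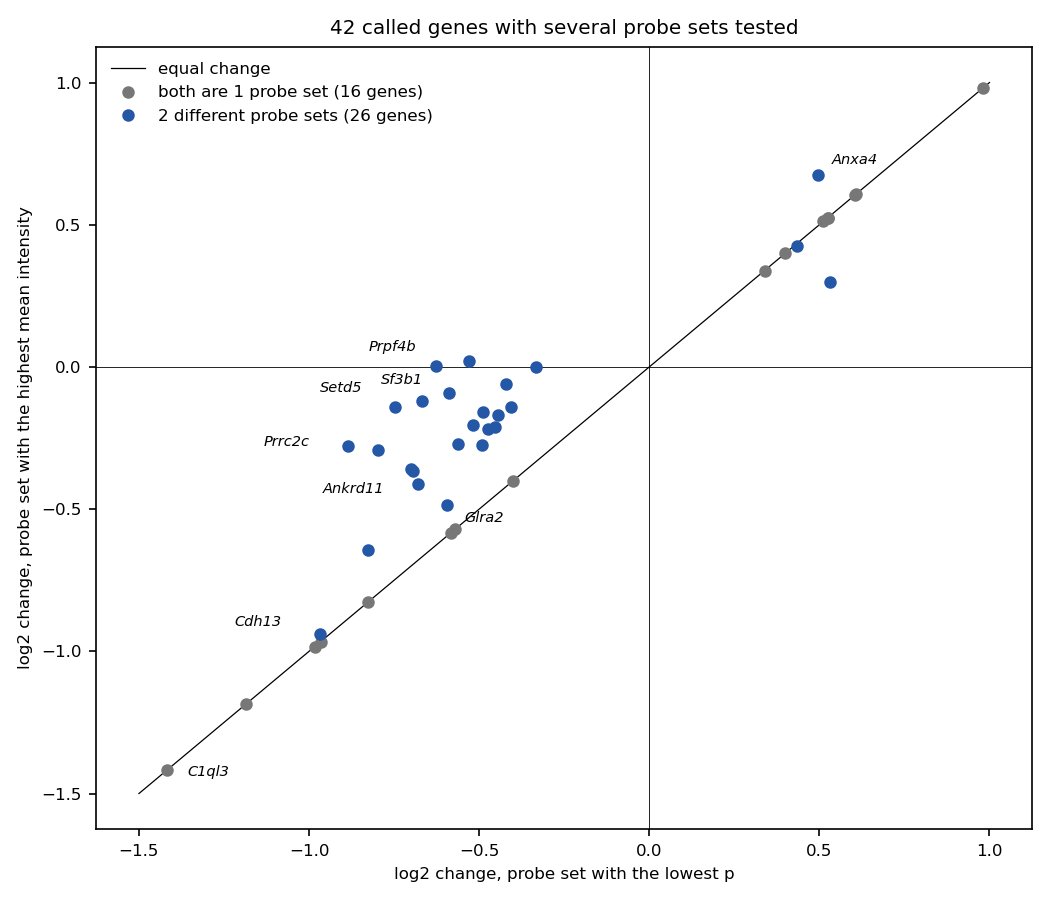
Log2 difference at 2500 ppm for the 42 called genes with several probe sets tested, on the probe set with the lowest p (horizontal) and on the one with the highest mean intensity (vertical), where points on the line have equal values. The 26 genes in blue were called on a dimmer probe set, and the falls among them lie above the line, with smaller changes on the brightest probe set. The horizontal probe set was chosen by its p, so smaller changes on another probe set follow in part from that choice.

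Gene lists for neuronal, glial and metabolic functions were read on the brightest probe set of each gene. On that basis 71 of 11606 genes (0.612%) were called, 39 higher (0.336%) and 32 lower (0.276%), 993 (8.56%) were higher and 728 (6.27%) lower before adjustment (p under 0.05), groups without overlap made up 12.3% of genes in the higher and 10.4% in the lower direction, and the median difference was 0.02. Of 520 neuronal genes, among them 14 of neural progenitors and 25 of cell division, 3 rose and 11 fell. At an unadjusted p under 0.05, 36 (6.92%) were higher and 82 (15.8%) lower. The striatal genes, all 21 of them lower with a median of -1.09, share 7 members with the neuronal lists, and without these 7, a count added after the values were seen, 36 were higher and 78 lower of 513. With the striatal mean as a covariate 43 neuronal genes were higher and 57 lower at that p. Of 427 metabolic genes, 3 rose and 0 fell, and 42 (9.84%) were higher and 13 (3.04%) lower. This class also held 36 steroid, thyroid and retinoid response genes, of which 10 were higher and 6 lower at that p. That list shares members, including Rarb, Rxrg and Crabp2, with the striatal and meningeal lists. Of 100 glial genes, 1 rose and 1 fell, and 19 (19%) were higher and 5 (5%) lower. The medians were -0.03, 0.04 and 0.06, so the middle gene of each class differed little.

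**Figure D5:**
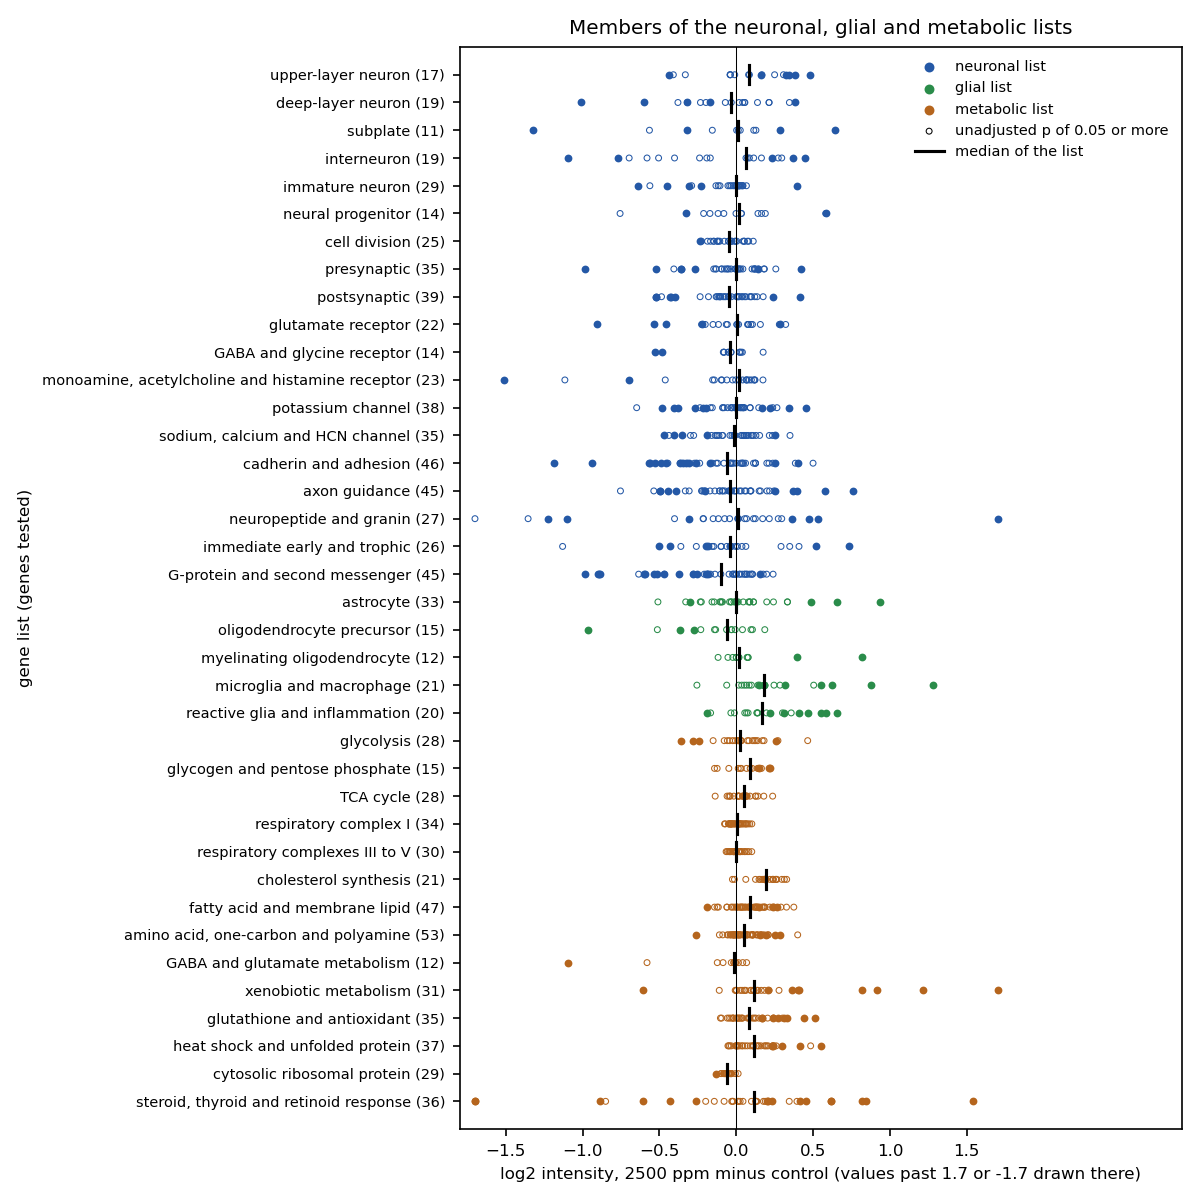
Log2 difference at 2500 ppm for each gene tested in the 38 neuronal, glial and metabolic lists, with filled points for an unadjusted p under 0.05 and a bar at the list median. The neuronal lists spread to both sides with more filled points below 0, and the members of respiratory complex I lie between -0.08 and 0.10.

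Adhesion and signalling genes held many lower members. Of 46 cadherin and adhesion genes, 1 rose, 3 fell and 13 (28.3%) were lower at an unadjusted p under 0.05, with a median of -0.06. The falls were Cdh13, Cdh22 and Flrt3, and the rise was Pcdh9. Cdh22, another cadherin, read 9.83, 10.19 and 9.91 in the controls and 8.78, 8.75 and 8.84 at 2500 ppm, a fall of 1.18, while its second probe set was at -0.06. Of 45 genes of G proteins and second messengers, 0 rose, 2 fell and 14 (31.1%) were lower at an unadjusted p under 0.05, with a median of -0.10, and the list mean was 0.16 to 0.23 below the controls on the 3 exposed arrays. Rasgef1c, an exchange factor for small GTPases, read 8.12, 8.23 and 8.37 against 7.24, 7.49 and 7.28, and Plce1, a phospholipase C activated by Ras, read 7.70, 7.82 and 7.09 against 6.55, 6.67 and 6.43. Rasgrp1 at -0.88 and Rgs17 at -0.52 had adjusted p of 0.0850 and 0.0872. The list shares Pde1b and Pde10a with the striatal list, and with the striatal mean as a covariate its median was -0.05, against -0.04 for the adhesion list.

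Few channel and receptor genes were called, but before adjustment these lists held larger shares of lower genes than the 6.27% of all genes. Of 38 potassium channel genes, Kcna4 fell and 0 rose, and 6 (15.8%) were lower and 4 (10.5%) higher at an unadjusted p under 0.05. The next in p were Kcna1 at -0.40 (adjusted p = 0.0829), Kcna6 at -0.27 (0.0944) and Kcnc2 at -0.38 (0.0989), so the 3 smallest p-values of the list were those of Kv1 family genes. Of 35 sodium, calcium and HCN channel genes, 1 fell: Cacng4, an AMPA receptor auxiliary protein, by 0.40 (SE 0.07, adjusted p = 0.0437), from 8.52, 8.49 and 8.54 to 8.22, 8.08 and 8.05. At an unadjusted p under 0.05, 4 (11.4%) of this list were lower and 1 (2.86%) higher. The 750 ppm arrays of Cacng4 read 8.08 to 8.26, also below the controls. Scn3a, the sodium channel of immature neurons, was at -0.47 (adjusted p = 0.0808).

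Of 22 glutamate receptor genes limma called 0, with 4 (18.2%) lower and 1 (4.55%) higher at an unadjusted p under 0.05. Gria1, an AMPA receptor subunit, was at -0.54 (adjusted p = 0.0585), from 9.14, 9.27 and 9.31 to 8.66, 8.81 and 8.64, and Grm5, a metabotropic receptor, at -0.46 (adjusted p = 0.138). For Grik2 and Gria1 the exposed arrays lay below every control. Of 14 GABA and glycine receptor genes 0 were called on the brightest probe set, with Glra2 and Gabra2 the 2 (14.3%) lower at an unadjusted p under 0.05 and 0 higher. Gabra2, a GABA-A subunit, was at -0.53 (adjusted p = 0.195).

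At the synapse, 35 presynaptic genes gave 2 falls, Rims2 and Sv2b, and a median of -0.005, with 5 (14.3%) lower and 2 (5.71%) higher at an unadjusted p under 0.05. Sv2b, a synaptic vesicle glycoprotein, read 11.72, 11.99 and 12.08 in the controls and 11.06, 10.93 and 10.84 at 2500 ppm, a fall of 0.98. Syt7, a calcium sensor, was at -0.36 (adjusted p = 0.120). Of 39 postsynaptic genes 0 were called, with 5 (12.8%) lower and 2 (5.13%) higher at an unadjusted p under 0.05. Nrgn, a calmodulin-binding protein of dendrites, was at 0.42 (adjusted p = 0.0786) and Camk4, a calmodulin-dependent kinase, at -0.43 (adjusted p = 0.0872).

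Of 45 axon guidance genes, 1 rose and 0 fell. Efna5, which encodes ephrin-A5, a repellent ligand in cortical area and fibre maps, read 10.23, 10.30 and 10.30 in the controls and 11.08, 11.02 and 11.01 at 2500 ppm, a rise of 0.76 (SE 0.12, adjusted p = 0.0301). The exposed arrays lay close together above every control, and the 750 ppm arrays, at 9.73, 10.27 and 10.10, were not higher than the controls. Its receptor gene Epha5 was at -0.44 (adjusted p = 0.0987), and Robo1 and Slitrk3 at -0.39 and -0.50 (adjusted p of 0.0704 and 0.0856). Efna5 is on no bordering-tissue list and was at 0.66 with the striatal mean, 0.91 with the meningeal mean and 0.62 with the choroid plexus mean as a covariate, but it passed with none of them (adjusted p of 0.190, 0.515 and 0.773) and in 3 of the 9 fits that left out 1 array.

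Few layer markers were called. Of 17 upper-layer genes 0 were called, with 5 (29.4%) higher and 1 (5.88%) lower before adjustment (p under 0.05) and a median of 0.09. Id2 was at 0.34 (adjusted p = 0.0538), with controls at 12.23, 12.24 and 12.24 and exposed arrays at 12.62, 12.59 and 12.53. Dkk3 was at 0.48 (adjusted p = 0.0577) and did not overlap either, Cux2 at 0.38 and Nectin3 at 0.32. Of 19 deep-layer genes, Syt6, a synaptotagmin of layer 6 neurons, fell by 1.01 and 4 (21.1%) were lower at an unadjusted p under 0.05. Syt6 read 8.05, 7.94 and 8.32 against 7.05, 7.10 and 7.13. Bcl11b, a transcription factor of subcerebral projection neurons and of striatal neurons, was at -0.60, -0.84 and -0.998 on its 3 probe sets (unadjusted p of 0.0108, 0.00628 and 0.00525), while its relative Bcl11a was at 0.38 and 0.35 on 2. With the striatal mean as a covariate Bcl11b was at -0.09 on its brightest probe set.

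Emx1, the transcription factor that marks cortical as against striatal precursors, was looked up after these values were seen. It was at 0.58 (SE 0.11, adjusted p = 0.0573), with controls at 8.70, 8.66 and 8.80, exposed arrays at 9.14, 9.38 and 9.38 and no overlap. Gad2, which makes GABA in interneurons and striatal neurons, was at -1.09 (adjusted p = 0.137), from 7.61, 7.59 and 8.23 to 6.66, 6.77 and 6.73. Meis2, a homeobox gene of the striatal list, fell by 0.94, from 13.21, 13.10 and 13.01 to 12.04, 12.36 and 12.09. All 21 striatal genes, Meis2 among them, were lower in the mean of the same exposed arrays. Of these, 17 did not overlap with the controls, where 10.4% of all genes were lower without overlap. Whether the lower values of Bcl11b and Gad2 belong with the striatal genes was not tested.

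Of the glial genes, 1 of the oligodendrocyte precursor list and 1 of the macrophage list were called. Luzp2, which is expressed in oligodendrocyte precursors and astrocytes, read 8.94, 9.06 and 8.97 in the controls, 8.11, 7.93 and 8.04 at 2500 ppm and between 8.80 and 9.15 at 750 ppm. Each exposed array lay below all 6 others, and the fall was 0.97 (SE 0.09, adjusted p = 0.0115). A second probe set was at -0.16 (unadjusted p = 0.0784). Of the 15 precursor genes, 0 rose, Luzp2 was the 1 that fell on the brightest probe set, 3 (20%) were lower at an unadjusted p under 0.05 and the median was -0.06. Pcdh15, a protocadherin of these cells, was at -0.37 (adjusted p = 0.108), and Vcan at -0.27 on its brightest probe set. Of 12 genes of myelinating oligodendrocytes and 33 of astrocytes limma called 0. At an unadjusted p under 0.05 the first list had 2 higher and 0 lower, and the second 3 higher and 1 lower. Gfap, the intermediate filament of mature astrocytes, was at 0.66 (adjusted p = 0.187), with controls from 8.14 to 9.01 and exposed arrays from 9.02 to 9.43.

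Of 21 microglial and macrophage genes, 1 rose, 0 fell, and 8 (38.1%) were higher at an unadjusted p under 0.05, with a median of 0.18. Cd14, the receptor for bacterial lipopolysaccharide, read 6.20, 5.77 and 5.94 in the controls, near the dim end of the array, and 6.66, 6.50 and 6.62 at 2500 ppm, a rise of 0.62 (SE 0.10, adjusted p = 0.0381). Its mean over the 9 arrays lay just above the limit for dim probe sets, which it passed through the exposed arrays, and with no such limit its adjusted p was 0.0374. Lgals3, a lectin of activated macrophages, was at 0.55 (adjusted p = 0.0895). Lyve1 and Mrc1, which mark the macrophages of the brain's borders, were at 1.28 and 0.87 (adjusted p of 0.118 and 0.162). P2ry12, Cx3cr1 and Tmem119, which mark resident microglia and are named here after their values were seen, were at 0.04, 0.05 and 0.07 with unadjusted p of 0.851, 0.510 and 0.461. With the meningeal mean as a covariate the median of the list was 0.02, and Lyve1 and Mrc1 were at -0.04 and -0.17. Of 20 genes of reactive glia and inflammation 0 were called, with 7 (35%) higher and 1 (5%) lower before adjustment (p under 0.05) and a median of 0.17. Timp1, an inhibitor of matrix proteases, was at 0.46 (adjusted p = 0.0592), and Hspb1, Cd44 and Vim were at 0.55, 0.41 and 0.59. That median was 0.06 with the meningeal covariate.

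None of the energy metabolism lists held a called gene. Of 34 complex I genes and 30 genes of complexes III to V, 0 differed in either direction by limma even at an unadjusted p under 0.05, and their members ran from -0.08 to 0.10 and from -0.07 to 0.10. None of 28 genes of the TCA cycle passed that threshold either. Among 28 glycolysis genes limma called 0, with 3 lower and 1 higher at an unadjusted p under 0.05. Slc2a3, the neuronal glucose transporter, was at -0.36, from 9.83, 9.90 and 10.07 to 9.60, 9.51 and 9.62 (adjusted p = 0.152). Pfkp, a phosphofructokinase, was at -0.28, from 11.70, 11.66 and 11.68 to 11.48, 11.37 and 11.34 (adjusted p = 0.0950). Pfkfb3, which makes its activator, was at -0.25, and Gpd2, the mitochondrial glycerol phosphate dehydrogenase, at 0.26. The exposed arrays of Slc2a3, Pfkp and Pfkfb3 lay below every control. Of 15 genes of glycogen and pentose phosphate metabolism, 3 (20%) were higher and 0 lower by limma at an unadjusted p under 0.05. The shares of all genes were 8.56% and 6.27%. The median of this list was 0.09, with 12 above 0.

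Lipid and amino acid metabolism gave small positive medians. The 21 genes of cholesterol synthesis had a median of 0.19, with 19 above 0 and 1 higher at an unadjusted p under 0.05, Tm7sf2 at 0.18. That median was 0.04 without control replicate 3, whose list mean was -0.33 against 0.11 and 0.21 in the other controls. The 47 genes of fatty acid and membrane lipid metabolism had a median of 0.09, with 3 higher and 1 lower before adjustment (p under 0.05). Acadl, of fatty acid oxidation, and Fabp3, a fatty acid carrier, were at 0.27 and 0.24. The 53 genes of amino acid, one-carbon and polyamine metabolism had a median of 0.05 and 4 higher and 1 lower, with Prodh, of proline breakdown, at 0.29 and Psat1, of serine synthesis, at -0.26. Limma called 0 genes in these 3 lists.

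Of 31 xenobiotic genes, 2 rose and 0 fell. At an unadjusted p under 0.05, 8 (25.8%) were higher and 1 (3.23%) lower, against 8.56% and 6.27% of all genes, and the median was 0.12. The rises were Sult1a1, a sulfotransferase of phenols, and Cyp1b1. Sult1a1 read 7.22, 7.03 and 6.43 in the controls and 7.96, 8.33 and 8.03 at 2500 ppm, and Cyp1b1 read 9.24, 8.72 and 8.75 against 9.86, 9.63 and 9.98. The rise of Sult1a1 was 1.22 (SE 0.19, adjusted p = 0.0295). That of Cyp1b1 was 0.92 (SE 0.14, adjusted p = 0.0300), and with the meningeal mean as a covariate they were at 0.56 and 0.57. Gsta1, a glutathione transferase, was at 1.87 (adjusted p = 0.0573), with exposed arrays at 8.89, 8.51 and 7.29 in the order of their choroid plexus means, and it was at -0.29 with that mean as a covariate. Ephx1, an epoxide hydrolase, was at 0.40 (adjusted p = 0.0665).

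Of 35 glutathione and antioxidant genes limma called 0, with 8 (22.9%) higher and 0 lower before adjustment (p under 0.05) and a median of 0.08. Sod3, the extracellular superoxide dismutase, was at 0.44 (adjusted p = 0.0915), and Hmox1, Txnip and Selenop at 0.31, 0.51 and 0.33. The control mean of Sod3 was 6.30, below the limit for dim probe sets. Of 37 genes of heat shock and the unfolded protein response, Cryab was the 1 that rose and 0 fell, with a median of 0.11 that was 0.02 without control replicate 3. Cytosolic ribosomal protein genes, which run near the top of the intensity range, had 28 of 29 members below 0 with a median of -0.06. Rpl24, at -0.13, was the 1 member with an unadjusted p under 0.05. With the meningeal mean as a covariate, the medians of the xenobiotic, antioxidant and heat shock lists were -0.01, -0.02 and -0.02.

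The 750 ppm group shares the control arrays with the 2500 ppm group, so its values are set beside these without a test of likeness. For the 12 moderate genes lower at 2500 ppm, the 750 ppm difference from control ran from -0.35 to 0.08, with adjusted p of 0.201 or more. Kcna4 was at -0.07, Rims2 at -0.02, Zfp423 at 0.02 and Pacsin1 at 0.08, while LOC102553760 and Casp8ap2 were at -0.35 and -0.28. For the 12 higher genes it ran from -0.05 to 0.88, with adjusted p of 0.0858 or more. Aldh1a2, Cyp1b1 and Vamp8 were at 0.75, 0.88 and 0.40, beside 0.71, 0.92 and 0.47 at 2500 ppm, while Pdzrn3, Cryab and Col8a1 were at -0.05, 0.10 and 0.10. The meningeal list mean of the 750 ppm arrays was 0.87 to 1.08, within or above the range of the 2500 ppm arrays, and the striatal mean was 0.11, 0.03 and -1.24 on 750 ppm replicates 1, 2 and 3.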

How the data were processed

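Cortical RNA of 9 pups was measured on Affymetrix rat whole-genome expression arrays, with 100 ng of total RNA and 16 hours of in vitro transcription per the labels' protocols. The authors' deposited values are log2 intensities, made with affy and RMA per the submitters' processing notes, in which background is corrected, arrays are quantile-normalized and probes are summarised. Versions are not given in the sources used here. RMA compresses differences near background, and the arrays carry no detection call, so the number of arrays limits the precision.

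Probe sets in the dimmest 30% (9313, with a log2 mean under 6.35) were left out. In limma 3.58.1 (R 4.3.3) the 9 arrays were modelled by their 3 groups with empirical Bayes variances. P-values are two-sided and Benjamini-Hochberg adjusted over 21729 probe sets, with a threshold of 0.05. Each pup came from its own litter, so the p-values measure the spread between pups. An exact permutation test of 3 against 3 cannot give a p below 0.1. The fit was tested on simulated data.

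Symbols came from the platform annotation (20826 probe sets with 1 symbol, 436 with several, 9780 with none), checked against a gene table of GRCr8. Promoters are RefSeq's. Genes were named by rule: the 12 highest and 12 lowest called, of the other called genes with a change under 1, the 12 in each direction with the smallest p, the 10 in each direction with at least 2 probe sets at an unadjusted p under 0.05 and a best change of 0.3 to 1, up to 4 members by p of each list described, and those passing without any single array. The comparison, the lists and the rules were chosen with earlier results of these data known. List genes are read on their brightest probe set. Alternatives were other filters, scalings, variance models, thresholds and probe sets, the replicate number as a block, fewer arrays, and list means as covariates.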

Additional observations from a re-analysis of the deposited data

How the results depend on the processing

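The values compared here are 149 probe sets called (61 higher, 88 lower), 26 called genes of the fixed lists, and 254 genes with at least 2 probe sets at an unadjusted p under 0.05 and all probe sets of 1 sign, which leaves out the overlap condition used for 239. Leaving out 1 array gave 9 to 447 probe sets called, 3 to 139 higher and 6 to 308 lower, 3 to 67 list genes and 168 to 310 genes on several probe sets. Without any filter on dim probe sets 170 were called and without the dimmest 50% 109. Centring each array on its median gave 166, 91 higher and 75 lower (54.8% higher, against 40.9%), and a second quantile normalization 145, 74 higher and 71 lower (51.0%). Median centring moved the median of all probe sets from 0.007 to 0.028. With trend and robust variances 199 were called, and with only the 2 groups compared 481 (103 higher, 378 lower), with 63 list genes. Array weights gave 1495 (633 higher, 862 lower) with 127 list genes, and leaving out control replicate 3 and 750 ppm replicate 3 together gave 250 (92 higher, 158 lower) with 45. An adjusted p under 0.1 gave 585 (238 higher, 347 lower) with 73 list genes, and requiring 1.5-fold with p under 0.05 before adjustment gave 450 (197 higher, 253 lower) with 77. The striatal covariate gave 7 (4 higher, 3 lower), with 1 list gene and 147 genes on several probe sets. The meningeal and choroid plexus covariates gave 0 called in either direction by limma, 0 list genes, and 55 and 54 genes on several probe sets. All 3 of these list means move with the group, which lowers the precision of the group difference. The cause of these differences was not tested.

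The groups share replicate numbers 1 to 3 in the labels, which state no pairing. Deviations from the group means correlated at 0.014, -0.067 and 0.063 in the same-numbered arrays. Between arrays of unlike number the correlations ran from -0.11 to 0.14. So few pairs cannot decide whether same-numbered arrays were handled together. With the replicate number as a block, 122 probe sets were called, 40 higher and 82 lower, with 22 list genes and 250 genes on several probe sets.

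Directions turned in genes that were not called. With the choroid plexus covariate Bcl11a was at -0.19, Prodh -0.079, Gsta1 -0.29, Sod3 -0.049, Txnip -0.075 and Cx3cr1 -0.0071. With the meningeal covariate Lyve1 was at -0.036, Mrc1 -0.17, Acadl -0.014, Hmox1 -0.0070, Selenop -0.067 and P2ry12 -0.22. With the striatal covariate Cx3cr1 was at -0.052 and Tmem119 -0.010. P2ry12 ran from -0.0048 (without control replicate 3, alone or with 750 ppm replicate 3) to 0.073 and Tmem119 from -0.013 (without control replicate 2) to 0.113 when 1 array was left out. With 3 pups per group, 1 array can decide a call, and sex, litter condition and dissection could not be modelled.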
